A study of Mus musculus with 4 samples.

Results

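The genes described here encode the machinery that moves membrane and cargo between the cell surface, endosomes, the Golgi and lysosomes. They were chosen by a rule on names, with earlier results of these data known. It takes rows whose symbol begins with the stem of a Rab GTPase, a Rab or Arf regulator, or a SNARE or syntaxin-binding protein. It also takes the stems of a clathrin or adaptor subunit, an epsin, an EHD protein, and a caveolin or cavin. The last stems are those of a sorting nexin, an exocyst subunit, or a Vps or Chmp protein. This rule found 172 of the 9114 rows of the deposited table. All 172 passed the minimum mean of 10 normalised counts and were tested. Of these, 170 are annotated as protein-coding and 2, Rab10os and Rab11fip4os1, as antisense RNAs. The rule matches 295 protein-coding genes of the mouse annotation, and those without a row are not analysed here.

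RNA had been sequenced from lymphatic endothelial cells of the meninges, the membranes that surround the brain, in 2 libraries per group. The donors were male C57BL/6J mice aged 20 to 24 months. Each had received 5 µL of adeno-associated virus serotype 1 into the cisterna magna, carrying AAV1-CMV-mVEGF-C (the mouse form of VEGF-C, which drives growth of lymphatic vessels) in the treated group or AAV1-CMV-eGFP (a fluorescent protein) in the control group. Cells were collected 4 weeks later by sorting for DAPI-CD45-CD31+PDPN+ singlets, and every library pooled the meninges of 10 mice. All animals of both groups therefore carried a virus. The CMV promoter is not limited to a cell type, so the cells that made VEGF-C are not defined by the construct, and Vegfc itself is not analysed here. The comparison asks how the transcripts of aged meningeal lymphatic cells differed after VEGF-C delivery.

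Rab proteins are small GTPases that mark a membrane as early, late, recycling or secretory. DENN-domain proteins and other exchange factors load them with GTP, and TBC-domain proteins stimulate the hydrolysis that switches them off. Coats of clathrin and its adaptors, caveolae, retromer with sorting nexins, and ESCRT complexes select cargo and shape carriers, tethers catch those carriers, and SNAREs drive the fusion. In endothelium this traffic governs how long growth factor receptors, integrins and cadherins stay at the surface, and caveolae are abundant there.

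The libraries held between 25610683 and 28632461 reads on the genes of the table, and the groups overlapped in depth. All 7 lymphatic markers examined had a row, with a summed level of 439255 and 498513 normalised counts in eGFP 1 and 2 and 537316 and 449529 in mVEGF-C 1 and 2. Summed levels did not overlap between groups for the 6 of 7 pan-endothelial markers with a row, at 63269 to 71996 in eGFP and 74426 to 87793 in mVEGF-C libraries. Singly, Tek, Egfl7 and Emcn among them did overlap. The summed level of the 3 of 6 mural markers with a row did not overlap either, at 13189 to 17844 against 10029 to 12222. Singly, all 3 overlapped, with log2 fold changes (mVEGF-C minus eGFP) of 0.94 (Pdgfrb), -0.56 (Rgs5) and -1.22 (Kcnj8). The other marker sums overlapped between the groups: 5 of 7 fibroblast markers stood at 25332 to 61485 against 37736 to 67222, 6 of 7 blood endothelial markers at 42738 to 97306 against 45187 to 55781, and 2 of 5 erythroid markers at 901 to 2534 against 238 to 1140. Of 7 macrophage markers 1 had a row (Mrc1, 27577 to 32880 against 23299 to 28512). Of 7 neural and glial markers 2 had a row (summed level 578 to 813 against 373 to 1361), and of 6 lymphocyte markers 1 had a row (Cd3e, at most 15.2, and at 0 in mVEGF-C 1). The part of these differences in the results below was not tested. In bulk RNA, fewer cells of a type and less RNA per cell cannot be told apart.

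Across the 172 trafficking genes, 2 were lower and 0 higher in the mVEGF-C libraries (limma, Benjamini-Hochberg adjusted p under 0.05, hereafter "called"). That is 1.16% lower, against 1.31% of the 9063 genes tested, and 0% higher, against 0.828%. At an unadjusted p under 0.05, 4 were higher (2.33%, against 5.09% of all genes) and 9 lower (5.23%, against 6.70%). The edgeR test called 2 lower (1.16%, against 0.872% of all genes) and 0 higher (against 0.739%). DESeq2 called 4 lower (2.33%, against 3.51%) and 1 higher (0.581%, against 3.12%). The median log2 fold change, mVEGF-C minus eGFP, was 0.08 for the trafficking genes and -0.02 for all genes, and the median absolute log2 fold change was 0.69 against 0.79. The groups did not overlap, with mVEGF-C above, for 33 genes (19.2%, against 19.4% of all genes) and with mVEGF-C below for 30 (17.4%, against 19.8%). The shares of lower genes and of groups that did not overlap were thus near the background. Those of higher genes by p-value lay below it, on counts of at most 4 genes, and this difference was not tested.

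**Figure D1:**
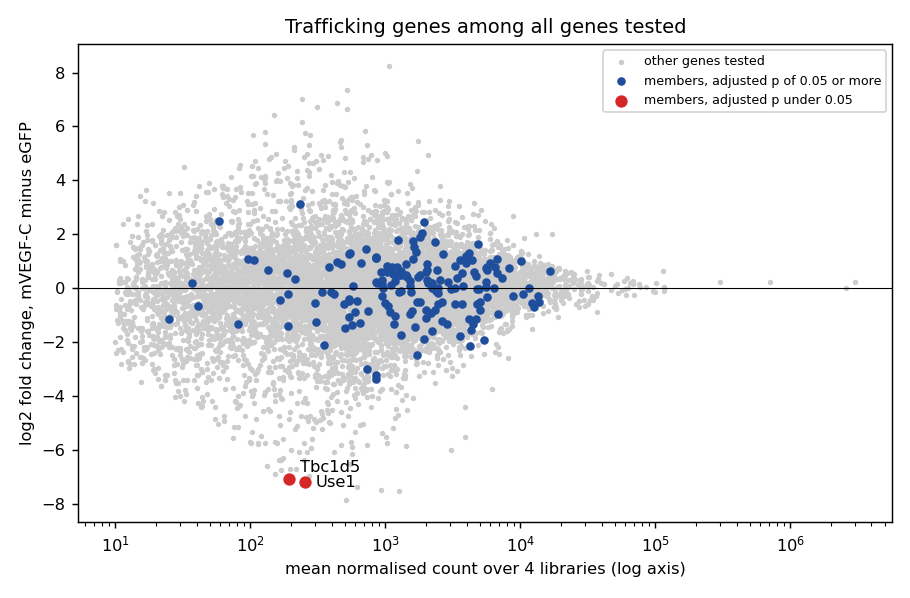
Log2 fold change (mVEGF-C minus eGFP, on log2(normalised count + 1)) against the mean normalised count over 4 libraries on a log axis. Grey points are the other genes tested, blue points the trafficking genes that were not called, and red points the 2 that were, Use1 and Tbc1d5, which lie at -7.20 and -7.09 while all other trafficking genes lie between -3.37 and 3.11.

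The spread between replicate libraries was as large as most differences between the groups. The median absolute log2 difference was 0.96 between the eGFP libraries and 0.87 between the mVEGF-C libraries. The eGFP libraries differed more than 4-fold in 28 trafficking genes, the mVEGF-C libraries in 23, and the group means on the log2 scale in 12. Means of 2 libraries vary less than single libraries. Group differences would thus be the smaller ones even without any effect of the treatment. The group difference exceeded the difference within both pairs for 41 of the 172 (23.8%), against 26.1% of all genes. The largest standard deviation of log2(reads + 1) in the deposited table was 2.000 in the eGFP pair and 2.999 in the mVEGF-C pair. These values look like limits on replicate agreement, which is read from the values only and is not stated in the labels. If such limits chose the rows, the spread is understated and the p-values are too small by an amount the table does not give. The limits would then differ by group, so a gene near 0 could be kept when low in mVEGF-C and dropped when low in eGFP. Counts of 0 were held by 3 and 4 rows in eGFP 1 and 2 and by 48 and 27 in mVEGF-C 1 and 2. Use1 and Tbc1d5, with 7 and 0 or 0 and 7 mVEGF-C reads, exceed the eGFP value there. Numbers called lower and higher are then not directly comparable. Together the 172 genes took 1.65% and 1.87% of the reads in eGFP 1 and 2 and 1.74% and 1.63% in mVEGF-C 1 and 2.

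Use1 and Tbc1d5 were the 2 trafficking genes called, and both were near 0 in the mVEGF-C libraries. Use1 encodes a SNARE of the endoplasmic reticulum that takes part in the return of carriers from the Golgi. Its level was 775 and 234 normalised counts in eGFP 1 and 2, and 7.48 and 0 in mVEGF-C 1 and 2. These values rest on 865, 219, 7 and 0 reads. The 0 in mVEGF-C 2 was taken to allow up to 3 reads, or 2.79 normalised counts, from the sampling of reads alone. The spread between libraries is not part of that bound. Both mVEGF-C libraries thus lay far below both eGFP libraries, which themselves were well apart. The log2 fold change of Use1 (chromosome 8, 71366848 to 71369732, GRCm38) was -7.20 (SE 1.31; by limma the adjusted p = 4.47e-05). Its size depends on the pseudocount, since 1 library was at 0, and was -7.74 with a pseudocount of 0.5 and -5.77 with a pseudocount of 5.

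Tbc1d5 encodes a Rab GTPase-activating protein that binds retromer and acts on Rab7, the Rab of late endosomes. It stood at 486 and 283 normalised counts in eGFP 1 and 2 and at 0 and 6.50 in mVEGF-C 1 and 2, from 543, 265, 0 and 7 reads. As with Use1, the groups did not overlap, and the same bound for the 0 in mVEGF-C 1 is 3.20 normalised counts. Its log2 fold change (chromosome 17, 50733124 to 51179352) was -7.09 (SE 1.31; by limma the adjusted p = 6.48e-05). It was -7.63 and -5.63 with the pseudocounts of 0.5 and 5. Either call was lost when an eGFP library was left out, though the differences stayed large. Without eGFP 1 the log2 fold change was -6.34 for Use1 and -6.70 for Tbc1d5 (limma, adjusted p = 0.145 and 0.121), and without eGFP 2 it was -8.06 and -7.47 (adjusted p = 0.0593 and 0.142). Without 1 mVEGF-C library both were called (limma, adjusted p up to 0.00897). Each of these fits leaves 1 library in a group, which is assumed to vary like the remaining pair, so they give little support either way.

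The sequences upstream of these genes are shown because they are the called ones, with that of Stxbp2, the gene with the highest fold change in the set, beside them. Each is the 250 bases before the outermost RefSeq start site on GRCm38.p6, 5′ to 3′ on the gene's strand, at chr8:71366598-71366847 (plus strand) for Use1, chr17:51179353-51179602 (minus strand) for Tbc1d5 and chr8:3630859-3631108 (plus strand) for Stxbp2. Capitals mark matches on either strand to 4 motifs: CCAAT as bound by NF-Y, GGGCGG as bound by Sp and Klf factors, CGGAAG as bound by ETS factors, and CACGTG as bound by E-box factors such as TFEB.
Use1: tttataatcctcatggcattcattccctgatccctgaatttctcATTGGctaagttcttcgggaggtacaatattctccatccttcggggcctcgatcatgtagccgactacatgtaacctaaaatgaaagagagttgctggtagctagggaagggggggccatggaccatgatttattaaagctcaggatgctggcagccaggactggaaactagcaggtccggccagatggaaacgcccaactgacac
Tbc1d5: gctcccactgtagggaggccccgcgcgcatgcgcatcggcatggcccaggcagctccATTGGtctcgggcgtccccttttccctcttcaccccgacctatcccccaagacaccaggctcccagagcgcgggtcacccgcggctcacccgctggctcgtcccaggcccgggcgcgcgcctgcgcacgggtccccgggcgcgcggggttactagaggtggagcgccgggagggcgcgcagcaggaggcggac
Stxbp2: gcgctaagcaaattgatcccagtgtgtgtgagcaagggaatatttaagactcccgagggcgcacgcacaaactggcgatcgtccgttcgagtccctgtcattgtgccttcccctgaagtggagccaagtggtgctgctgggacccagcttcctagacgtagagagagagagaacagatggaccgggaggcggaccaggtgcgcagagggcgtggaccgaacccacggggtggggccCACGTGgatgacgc

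The windows of Use1 and Tbc1d5 each held 1 CCAAT match, in reverse orientation, and none of the other 3 motifs. The Stxbp2 window held CACGTG, near its RefSeq start site, and none of the other 3. GENCODE starts Stxbp2 at 3630955, within this window. Part of the window, including CACGTG, therefore lies inside the gene by that annotation. Their base composition differed, at 48.8% G and C for Use1, 74.0% for Tbc1d5 and 60.4% for Stxbp2. An upstream window was found in RefSeq for 142 of the 172 genes. Of these, 38% held CCAAT (34.5% of all 27025 genes with a window, and 35.4% of those in the deposited table), 64.1% GGGCGG (33.0% and 57.2%), 16.9% CGGAAG (13.8% and 23.5%) and 11.3% CACGTG (6.04% and 7.64%). These matches describe letters in a window and not bound sites.

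**Figure D2:**
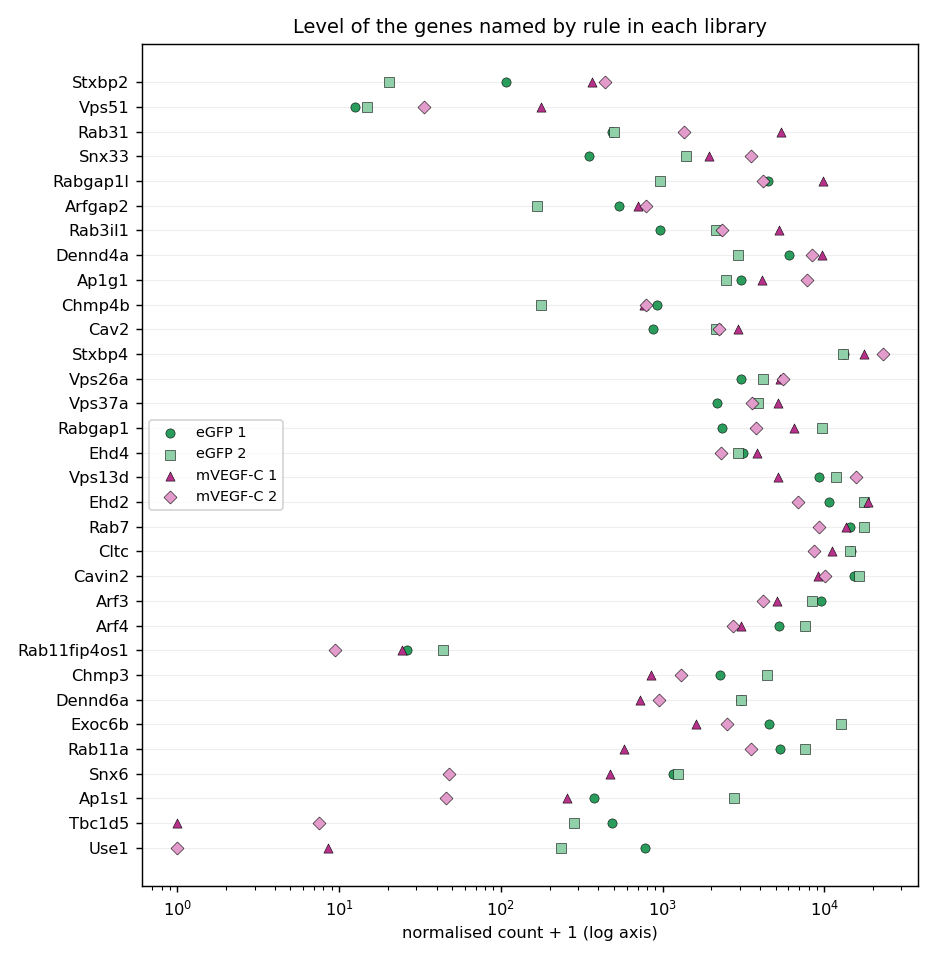
Normalised count + 1 (log axis) of the 32 genes named by rule, 1 row per gene in order of fold change, with 1 symbol per library. Use1 and Tbc1d5, at the bottom, have both mVEGF-C libraries below 10 and both eGFP libraries above 200, while the groups overlap for 7 of the 32 genes. Most of the genes were picked as the extremes of their role, so groups that do not overlap follow in part from the choice.

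Among the 31 Rab rows, 20 had a log2 fold change above 0 and 11 below, with a median of 0.37, and none was called. The extremes were Rab31, which acts between the Golgi and endosomes, and Rab11a, the Rab of recycling endosomes. Rab31 (chromosome 17, 65651729 to 65772752) stood at 487 and 503 normalised counts in eGFP 1 and 2 and at 5385 and 1356 in mVEGF-C 1 and 2. The eGFP values were nearly equal, and both mVEGF-C values lay above them, that of mVEGF-C 1 by far the highest. The log2 fold change was 2.45 (SE 1.04; by limma the adjusted p = 0.261), and DESeq2 called it (2.77, adjusted p = 0.0336). Rab11a (chromosome 9, 64715299 to 64737758) had 5322 and 7567 in eGFP 1 and 2 against 580 and 3520 in mVEGF-C 1 and 2. Both mVEGF-C values were lower, that of mVEGF-C 1 by far the lowest of the 4. On the log2 scale the difference was -2.15 (SE 0.83), not called by limma (adjusted p = 0.184), and 1 mVEGF-C library decided its size. It was -3.45 without mVEGF-C 2, the only setting in which it was called (limma, adjusted p = 0.0286), and -0.85 without mVEGF-C 1 (adjusted p = 0.846).

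Grouped by the membrane they mark, a grouping made like the other complexes below after values had been seen, the Rab genes did not move in 1 direction in most groups. Of 5 early endosome Rabs 3 were above 0, and Rab5a and Rab5c, which drive early endosome fusion, stood at -0.87 and 0.20. Rab5a was carried by 1 library, at 470 and 2668 normalised counts in eGFP 1 and 2 and 692 and 539 in mVEGF-C 1 and 2. Rab7, which governs late endosomes, had the highest level per length of all 172 genes, at 5491 and 6742 normalised counts per kilobase of exon in eGFP and 5225 and 3532 in mVEGF-C libraries. Both mVEGF-C values of Rab7 were below both eGFP values, with a log2 fold change of -0.50 (95% interval -1.45 to 0.44, limma adjusted p = 0.803). Of 7 Rabs of the endoplasmic reticulum and Golgi 5 were above 0. The nearest replicates among them belonged to Rab1a, which serves traffic from the endoplasmic reticulum, at 5031 and 5350 against 6238 and 5823 normalised counts (log2 fold change 0.22). Of 8 exocytic Rabs 5 were above 0, and Rab10, which carries cargo to the surface, had 5029 and 7352 in eGFP against 1465 and 4057 in mVEGF-C libraries (-1.32). The remaining Rab12, Rab23 and Rab34 were all higher in both mVEGF-C libraries, at 0.67, 1.75 and 1.12, and none was called. Rab23, an inhibitor of Hedgehog signalling, had 1554 and 299 against 2383 and 2215 normalised counts, so its difference came mainly from eGFP 2.

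Of 20 genes for GTPase-activating proteins, which switch Rabs off, 5 had a log2 fold change above 0 and 15 below (median -0.36), and 1, Tbc1d5, was called. Of all genes tested 49.5% were above 0, and no test was made of the group or of its difference from the Rab genes. Without mVEGF-C 1 the counts were 9 above and 11 below. Next to it stood Rab3gap1, the catalytic subunit of the Rab3 GTPase-activating complex, with 2427 and 702 normalised counts in eGFP and 206 and 76.2 in mVEGF-C libraries. Both mVEGF-C values were lower, and the log2 fold change was -3.37 (SE 1.20; by limma the adjusted p = 0.125). DESeq2 called Rab3gap1 (-3.47, adjusted p = 0.00681). At the other end, Rabgap1l had 4471 and 957 against 9878 and 4170 (log2 fold change 1.63, limma adjusted p = 0.369), with overlap of the groups. Its relative Rabgap1 had 2340 and 9722 against 6500 and 3778, a log2 fold change of 0.06 that was below 0 under 2 of 3 other scalings (-0.03 and -0.01, against 0.07 with TMM factors) and in the count tests (-0.23 to -0.22). The groups overlapped for 17 of these 20 genes, so 15% did not overlap, against 39.2% of all genes tested.

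Exchange factors and effectors of Rabs gave no called gene. The 10 DENN-domain genes split into 5 above and 5 below 0. Dennd6a, an exchange factor for Rab14, had 3042 and 3060 normalised counts in eGFP and 724 and 945 in mVEGF-C libraries. Replicates agreed closely in both groups and the groups were well apart, with a log2 fold change of -1.88 and an SE of 0.98 (limma, adjusted p = 0.438). That SE comes from the trend of the variance over all genes and not from the spread of Dennd6a itself. Dennd4a, an exchange factor for Rab10, had 6046 and 2934 against 9624 and 8428 (1.10, limma adjusted p = 0.558). Among 8 effectors and other exchange factors 5 were above 0, led by Rab3il1, an exchange factor for Rab8, at 957 and 2151 against 5227 and 2329 (1.28). The lowest, at -1.16, was the antisense RNA Rab11fip4os1, at 25.1 and 42.8 against 23.5 and 8.36. Its reads cannot be told from those of Rab11fip4 on the opposite strand if the counting ignored strand.

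**Figure D3:**
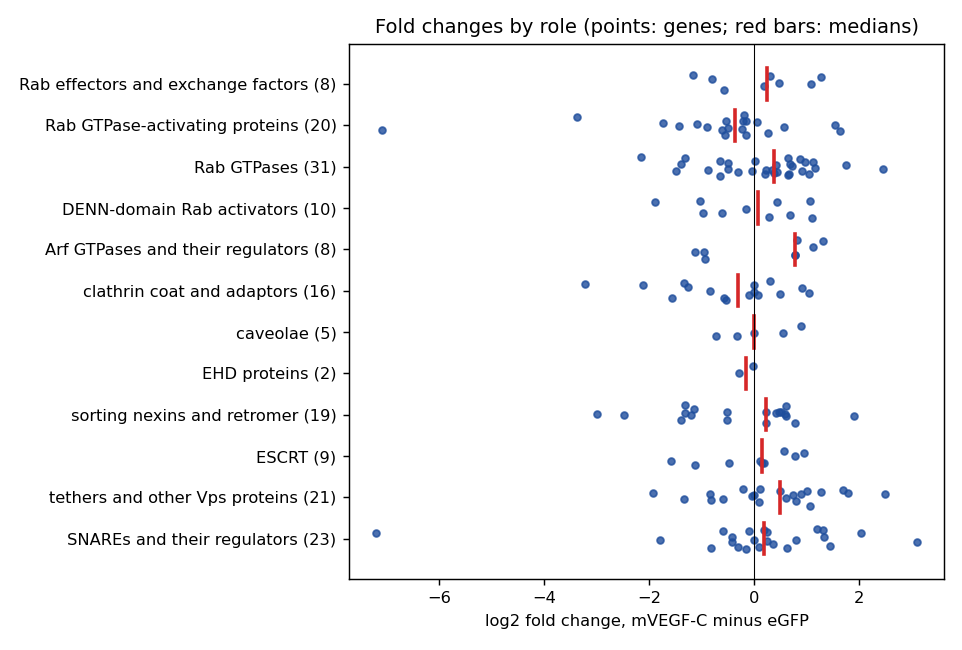
Log2 fold change (mVEGF-C minus eGFP) of each of the 172 trafficking genes by role, with the number of genes per role in parentheses. Blue points are genes and red bars medians, which lie between -0.36 (GTPase-activating proteins) and 0.77 (Arf GTPases and their regulators).

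Arf GTPases recruit coats to the Golgi and endosomes, and their 8 rows had the highest median of the roles, 0.77, with 5 above 0 and none called. The highest and lowest were Arfgap2 (1.32), which stimulates GTP hydrolysis on Arf1 at the Golgi, at 535 and 167 against 706 and 792 normalised counts, and Arf4 (-1.13). Arf1 and Arf3, close relatives that act at the Golgi, moved apart in these libraries. Arf1 had 4132 and 4198 normalised counts in eGFP and 6423 and 7991 in mVEGF-C libraries, and Arf3 had 9540 and 8443 against 5075 and 4175. Replicates lay close together and the groups were apart for both, with log2 fold changes of 0.78 (95% interval -0.56 to 2.13) and -0.96 (-2.23 to 0.31), neither called (limma, adjusted p = 0.766 and 0.633). Arf4, with 5266 and 7611 against 3066 and 2718, lies 3751 bases from Dennd6a on chromosome 14. Both are overlapped by the annotated antisense gene Arf4os, and both were lower in each mVEGF-C library.

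Clathrin coat and adaptor genes lay mostly below 0, 11 of 16 with a median of -0.32, and none was called. Cltc, the clathrin heavy chain, had the most reads of this role, with 14567 and 14384 normalised counts in eGFP and 11134 and 8596 in mVEGF-C libraries. Both mVEGF-C values were lower (log2 fold change -0.57, 95% interval -1.56 to 0.43, limma adjusted p = 0.772). The lowest was Ap1s1, a small subunit of the AP-1 adaptor of the Golgi and endosomes, at 374 and 2749 against 256 and 44.6. Its log2 fold change was -3.23 (SE 1.22; by limma the adjusted p = 0.164). It was called by DESeq2 (-3.38, adjusted p = 0.0331) and by limma without mVEGF-C 1 (-4.48, adjusted p = 0.0467). Without mVEGF-C 2 it was -1.98 and without eGFP 2 it was -1.79 (limma, adjusted p = 0.506 and 0.999). The other small subunits, Ap1s2 and Ap1s3, stood at -0.09 and 0.50, and the large subunit Ap1g1, at 3063 and 2452 against 4117 and 7801, had the highest fold change of the role (1.05). Of the AP-2 adaptor of the cell surface, Ap2a1, Ap2a2 and Ap2m1 were below 0 (-1.26, -1.57 and -0.85) and Ap2b1 above (0.92).

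Caveolar genes were abundant and none was called. Cavin2, which shapes the caveolar coat in endothelium, had 15210 and 16281 normalised counts in eGFP and 9146 and 10026 in mVEGF-C libraries. The replicates were close and both mVEGF-C libraries lower, with a log2 fold change of -0.72 (95% interval -1.70 to 0.26, limma adjusted p = 0.652). Cav1, the main caveolin, had values that overlapped between the groups, at 8235 and 2993 against 10286 and 5167 (0.55). Cav2, its partner, had 875 and 2151 against 2920 and 2220 (0.89), while Cavin1 and Cavin3 stood at -0.33 and 0.00. Ehd2, an ATPase at the neck of caveolae, had 10680 and 17625 against 18539 and 6883. These values overlapped, and the log2 fold change of -0.28 turned to 0.08 without eGFP 2 and 0.43 without mVEGF-C 2. Ehd4, at 3123 and 2911 against 3826 and 2310, stood at -0.02, and at 0.02 to 0.04 in the count tests.

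In retromer, which returns receptors from endosomes to the Golgi and the surface, the subunits fell on both sides. Vps35, the scaffold, had 2504 and 5863 normalised counts in eGFP and 1470 and 1598 in mVEGF-C libraries (log2 fold change -1.32). Vps26b, 1 of 2 interchangeable arms, had 1557 and 4222 against 269 and 779 (-2.48, SE 1.06, limma adjusted p = 0.258). The other arm, Vps26a, had 3062 and 4192 against 5315 and 5524 (0.60), and Vps29 had 1075 and 629 against 1507 and 1310 (0.77). Groups did not overlap for any of these 4 genes, 2 in each direction, and none was called; 39.2% of all genes tested did not overlap. Sorting nexins split likewise. Snx6, which works with retromer as a curved-membrane sensor, had 1153 and 1239 against 471 and 46.5, lower in both mVEGF-C libraries (95% interval of the log2 fold change -5.33 to -0.66, limma adjusted p = 0.203). Its log2 fold change was -4.66 without mVEGF-C 1, the only setting in which it was called (limma, adjusted p = 0.0307), but -1.34 without mVEGF-C 2 (adjusted p = 0.701) and -2.20 in edgeR. Its partner of the same kind, Snx5, had 1828 and 636 against 990 and 2287 (0.48). Snx33, a nexin of endocytosis, was the highest at 1.90, with 348 and 1389 against 1923 and 3525.

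ESCRT genes, which sort ubiquitinated receptors into multivesicular bodies, gave no called gene, with 6 of 9 above 0. Their median absolute log2 difference was 1.84 within the eGFP pair, against 0.94 for all genes, and 0.62 within the mVEGF-C pair, against 1.07. The lowest, Chmp3, an ESCRT-III subunit, had 2268 and 4423 normalised counts in eGFP and 845 and 1300 in mVEGF-C libraries (-1.59, limma adjusted p = 0.556). It was the only gene of the 9 whose groups did not overlap (11.1%, against 39.2% of all genes tested). Chmp4b, the main filament subunit, had 918 and 176 against 764 and 791, and its log2 fold change of 0.95 turned to -0.24 without eGFP 2. The ATPases that dismantle the filament, Vps4a and Vps4b, stood at 0.14 and -1.12, and Vps37a, of ESCRT-I, at 0.57, with 2164 and 3879 against 5151 and 3584.

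Tethering complexes showed 1 group whose members were all above 0. The 5 subunits of the GARP and EARP complexes, which tether endosome-derived carriers, had log2 fold changes of 0.61 (Vps50), 2.49 (Vps51), 1.79 (Vps52), 0.50 (Vps53) and 0.74 (Vps54), and none was called. Vps52 had 528 and 583 normalised counts in eGFP and 1957 and 1874 in mVEGF-C libraries. Replicates were close and the groups apart, at an SE of 1.06 (limma, adjusted p = 0.556). Vps51 had 11.6 and 13.9 against 175 and 32.5 (limma, adjusted p = 0.454), values so low that few reads decide them, and it overlaps Tm7sf2 on the same strand. In the exocyst, which tethers carriers at the surface, 3 of 7 subunits were above 0. Exoc6b had 4524 and 12754 against 1607 and 2492 (-1.92, SE 0.77, limma adjusted p = 0.207), and its relative Exoc6 stood at -0.05. Of 4 HOPS and CORVET subunits, which tether late and early endosomes, 3 were above 0. While 39.2% of all genes tested did not overlap, the groups overlapped for all 4 of these subunits. Vps16 among them had 529 and 1275 against 6413 and 1118, so mVEGF-C 1 alone set its difference of 1.70. Vps13d, a lipid-transfer protein, had the most reads of the tethers and other Vps genes, at 9280 and 11786 against 5136 and 15645 (-0.22, and 0.58 without mVEGF-C 1).

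Apart from Use1, the SNAREs and their regulators were not called, and 13 of all 23 were above 0. The highest was Stxbp2 (chromosome 8, 3630955 to 3643644), a Munc18-family protein that assists syntaxins in exocytosis, at 106 and 19.2 normalised counts in eGFP and 365 and 438 in mVEGF-C libraries. Both mVEGF-C values lay well above both eGFP values, of which that of eGFP 2 was the lower. The log2 fold change was 3.11 (SE 1.28; by limma the adjusted p = 0.228). Stx3, a surface syntaxin that can pair with Stxbp2, was also higher in both mVEGF-C libraries, at 758 and 576 against 1622 and 4532 (2.04, SE 1.02, limma adjusted p = 0.406). Among syntaxins of internal membranes 5 of 6 were above 0, the exception being the endosomal Stx12, at 3550 and 6143 against 440 and 4128 (-1.79, limma adjusted p = 0.383). Stx5a, Stx6 and Stx16, of the Golgi and its network, were higher in both mVEGF-C libraries, at 1.33, 1.44 and 1.19. They were named after their values had been seen, and 19.4% of all genes tested were higher in both likewise. Of the 4 VAMPs 2 were above 0, and Vamp3, the SNARE of recycling carriers, had 1569 and 3369 against 6926 and 4689 (1.31). Stxbp4, with the most reads of this role, had 13177 and 13067 against 17544 and 23111 (log2 fold change 0.62, 95% interval -0.25 to 1.48, limma adjusted p = 0.668).

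Related genes were also compared within each library, since their ratio does not depend on the scaling of the libraries. Of 24 pairs of related trafficking genes, listed after their values had been seen, 13 had fold changes of opposite sign and 9 (37.5%) had log2 ratios that did not overlap between the groups, a share near the 39.2% of single genes over the whole table. The log2 ratio of Vps26a to Vps26b was 0.97 and -0.01 in eGFP 1 and 2 and 4.30 and 2.82 in mVEGF-C 1 and 2, a change of 3.08. For Arf1 to Arf3 it was -1.21 and -1.01 against 0.34 and 0.94 (change 1.75). The ratio of Rab27a to Rab27b, 2 exocytic Rabs, was -1.29 and -1.50 against 0.61 and 0.69 (change 2.05), with close replicates but low counts, at 90.8 to 276 for Rab27b. Rab11a to Rab11b stood at 0.63 and -0.32 against -4.57 and -0.88 (change -2.88), set largely by mVEGF-C 1. Snx5 to Snx6 stood at 0.66 and -0.96 against 1.07 and 5.59 (change 3.48), set largely by mVEGF-C 2. Over the 24 pairs the exact two-sided permutation p was 0.333 for each of the 9 that did not overlap, the smallest that 2 against 2 libraries allow, or 0.889 when adjusted over the pairs. No pair could therefore pass.

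**Figure D4:**
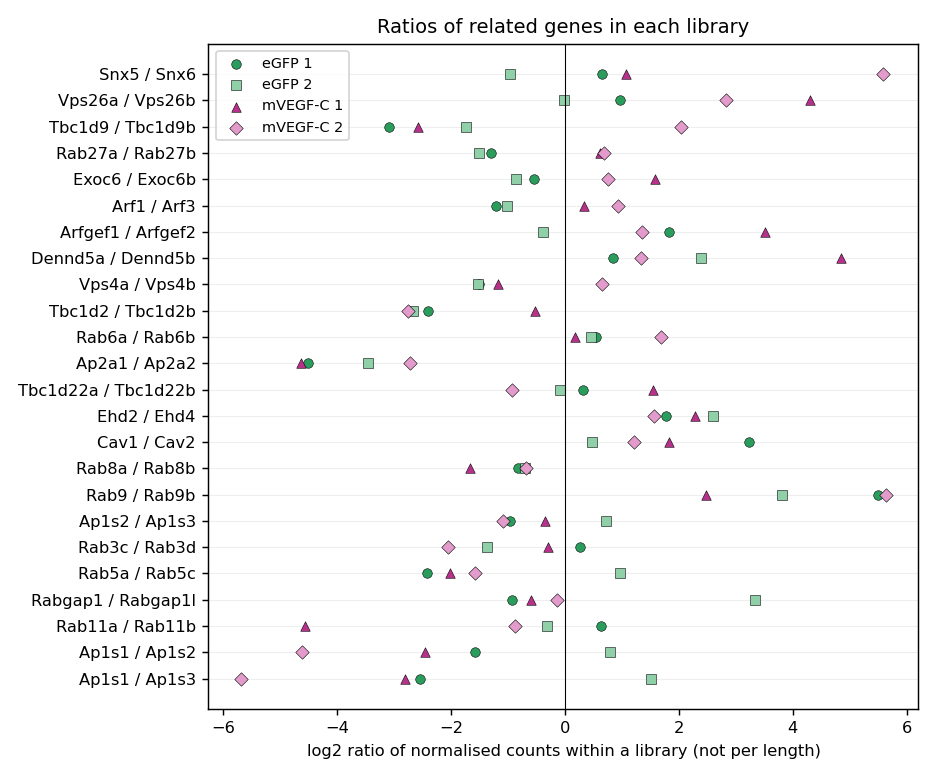
Log2 ratio of the normalised counts of 2 related genes within each library, for 24 pairs in order of the change from eGFP (circles and squares) to mVEGF-C (triangles and diamonds). For Vps26a / Vps26b, Rab27a / Rab27b, Exoc6 / Exoc6b and Arf1 / Arf3 all symbols of 1 group lie to the same side of those of the other, while for most pairs the groups overlap.

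Genes of the same pathways that the name rule leaves out gave no called gene either. Of 118 listed, 76 had a row and were tested, 38 above and 38 below 0, with a median of -0.01. At an unadjusted p under 0.05, 2 of the 76 were higher and 6 lower, against 5.09% and 6.70% of all genes tested. Of all genes tested, 0.828% were called higher and 1.31% lower. The lowest was Commd2, of the complex that recycles cargo with retriever, at 249 and 157 normalised counts in eGFP and 15.0 and 5.57 in mVEGF-C libraries (log2 fold change -4.28, SE 1.31, limma adjusted p = 0.0507). Napa, which with Nsf takes spent SNARE complexes apart, had 1263 and 2106 against 291 and 145 (-2.98, limma adjusted p = 0.183). Higher in both mVEGF-C libraries were Igf2r, a receptor that delivers enzymes to lysosomes, at 2257 and 978 against 13321 and 5272 (2.50, limma adjusted p = 0.0643), and Washc1, of the actin-nucleating WASH complex on endosomes, at 359 and 254 against 1340 and 2530 (2.60, limma adjusted p = 0.266). Asap2, an Arf GTPase-activating protein, had 4078 and 20502 against 1794 and 1589 (-2.44, limma adjusted p = 0.0616), with eGFP 2 far above the other libraries.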

How the data were processed

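Expression was measured by RNA sequencing in 4 libraries of sorted cells after linear amplification, per the labels' protocols. The submitters' processing notes name FastQC, Trimmomatic, Salmon and DESeq2 and the build mm10. For the strand setting and the annotation, the entry is not given in the sources used here. Deposited by the authors were normalised read counts, a signal in which every value of a library is a whole multiple of its smallest value above 0 (100% of values within 0.001), and division gave back whole reads.

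All 9063 genes with a mean of at least 10 were fitted with limma 3.58.1 in R 4.3.3 (eBayes with trend, log2(normalised count + 1), two-sided, 2 residual degrees of freedom, Benjamini-Hochberg over all genes). The prior degrees of freedom were infinite, so a gene's own spread did not enter its p-value. Fold changes on this scale understate low genes. Nothing says that libraries beyond the pooling were independent. The limma p-values thus set a difference against the trend of the spread between these libraries over all genes, and not against the spread between animals. On the recovered reads, edgeR 4.0.16 called 67 genes higher and 79 lower and DESeq2 1.42.0 called 283 and 318. The tests were also run on simulated counts, as a check that the code ran. Those counts had a fixed spread and no limits on replicate agreement. They therefore do not give the error rates of the calls in these libraries.

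Members and lists were chosen with earlier results of these data known. Genes named by rule are those called and, in each of 12 roles, the highest and lowest fold change and the most reads; others were named after their values were seen. Levels are normalised counts per library; levels per kilobase use the union of exons in GENCODE vM21 (GRCm38, which is mm10), where all 172 genes were found. Ensembl identifiers name 1146 rows, and 1098 of them could be matched to a symbol. Salmon divides reads among similar transcripts, so values of near-identical genes are uncertain.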

Additional observations from a re-analysis of the deposited data

How the results depend on the processing

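Use1 and Tbc1d5 were called in limma with pseudocounts of 0.5 and 5, without a filter or with a mean of at least 50, with robust eBayes or without trend (adjusted p = 0.0429 for both), under 3 other scalings, and in edgeR and DESeq2. The counts of called genes moved more. Over all genes, 75 were higher and 119 lower. Without trend there were 15 and 26, in DESeq2 283 and 318, and in edgeR 79 lower with TMM factors and 79 with the deposited scaling. DESeq2 called 4 trafficking genes lower (Use1, Tbc1d5, Rab3gap1 and Ap1s1) and 1 higher (Rab31). With single libraries left out, the genes called higher ranged from 5 to 104 and those called lower from 0 (without eGFP 2; 196 lower at an unadjusted p under 0.05) to 188 (without mVEGF-C 2). Trafficking genes called lower then ranged from 0, without either eGFP library, to 4, without mVEGF-C 1, and 0 were higher. A limma fit with the replicate number as a block called 74 genes higher and 129 lower, of which 0 and 2 were trafficking genes. Deviations of same-numbered libraries were not correlated (0.00013), so the numbers were not taken as pairs.

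Single genes were followed across settings for the 32 named by rule only. Among these, signs turned for 3 uncalled genes under other settings, and for these and Ehd2 and Chmp4b when a library was left out. Other genes near 0, such as Rab8a, were not followed. Ehd4 (-0.02) stood at 0.04 and 0.02 in edgeR with TMM factors and the deposited scaling and at 0.02 in DESeq2. Rabgap1 (0.06) stood at -0.03 with libraries rescaled to 1 total, -0.01 with quantile normalization, -0.22 and -0.23 in edgeR and -0.23 in DESeq2. Vps13d (-0.22) stood at 0.01 in edgeR with TMM factors. With single libraries left out, Ehd4 ranged from -0.38 to 0.34, Rabgap1 from -0.97 to 1.08, Vps13d from -1.03 to 0.58, Ehd2 from -1.0 to 0.43 and Chmp4b from -0.24 to 2.13. The cause was not tested. With 2 libraries per group, differences under the replicate spread were not detectable.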

Other observations

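Neighbouring trafficking genes did not always move together. On chromosome 9, Rab11a (-2.15) and Dennd4a (1.10) lie 73581 bases apart on opposite strands and differed in sign. On chromosome 6, Cav1 (0.55) and Cav2 (0.89) lie 17219 bases apart on the same strand. In eGFP 1 and 2, Cav1 had 8235 and 2993 normalised counts and Cav2 had 875 and 2151, so the library with more of the one had less of the other. In mVEGF-C 1 and 2, Cav1 had 10286 and 5167 and Cav2 had 2920 and 2220, so mVEGF-C 1 had more of both.

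After symbol lookup, 1 row named by an Ensembl identifier also matched the name rule, which would make 173 rows. It is the processed pseudogene Vamp7-ps, and the parent gene Vamp7 is not analysed here.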
